A study of Mus musculus with 22 samples.

Results

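The 200 array spots whose signal differed most between mouse mammary tumours driven by T121 with the p53coco label are described here, over the 12 tumours that chose them and 10 others. T121 is a piece of SV40 large T that blocks Rb and its relatives, which restrain the cell cycle. The members are the spots with the highest SD of the log2 ratio of tumour over reference signal across 12 tumours, 8 labelled MMTV-T121 WAPCre p53coco Brca1coco and 4 labelled MMTV-T121 WAPCre p53coco. They were taken from 7179 spots that passed the brightness limits of the rule, out of 22575 spots on each array. The SD and every value from these 12 arrays chose the members, so such values are a description and carry no test. Of the 200 spots, 187 carry 1 gene each, which gives 167 genes, and 13 carry no gene name here.

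Each of 22 end-stage tumours was hybridised on its own array of 2 colours, with tumour RNA in Cy5 and a reference RNA of whole mouse in Cy3. The 8 p53coco Brca1coco and the 4 p53coco tumours share the MMTV-T121 and WAPCre transgenes and a mixed strain background. The 10 other arrays hold 1 tumour each of WAPCre p53coco Brca1coco, which has no T121 in its label, MFT121 WAPCre p53coco, MFT21 WAPCre p53coco, MMTV-T121 WAPCre p53cococ, MMTV-T121 WAPCre p53cohet and MMTV-T121 MMTVCre p53cohet, all of mixed strain. The rest are WAP-T121 tumours, 2 of p53null and 1 of p53het in B6D2F1 mice and 1 in a BALBc mouse with no p53 label. The labels do not spell out coco, cococ and cohet, and age is not given. MMTV and WAP are promoters that act mainly in mammary epithelium, so the transgenes need not act in the muscle, fat, blood or connective tissue cells of a tumour. Tumours are numbered in the order of deposition, and a number has no further meaning.

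A mammary tumour holds epithelial cells along with fibroblasts, fat, vessels and immune cells, and its RNA is the sum over all of them. Luminal epithelial cells are known for the keratins Krt8 and Krt18, basal cells for Krt14, and skeletal muscle for its own myosins and creatine kinase. In RNA from whole tumours, fewer cells of a type and less RNA per cell cannot be told apart.

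Values below are normalized log2 ratios of tumour over reference unless said otherwise, so 0 means equal signal and positive values mean more signal in the tumour. On the 12 arrays, tumour signal exceeded background at 25.4% to 74.3% of spots, lowest for p53coco Brca1coco tumour 2 and highest for tumour 1. The reference channel of 3 arrays, those of the BALBc tumour, p53null tumour 1 and the p53het tumour, correlated with the median array at only 0.544 to 0.784, against at least 0.943 for the 19 others. The only usable Brca1 spot lay between 0.33 and 1.73 in p53coco Brca1coco tumours and between 0.15 and 1.45 in p53coco tumours. The groups overlap, and since the labels do not say which part of Brca1 was changed, this spot does not check the labels. No usable spot for Trp53 was found.

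The SD that chose the members, computed on the ratio of the rule, ran between 3.74 for Myh4 and 1.65 for Tjp3, with a median of 1.89 against 0.879 over the 7179 eligible spots. The last members inside the limit were a spot without gene name at 1.649 and Tjp3 at 1.645. Ldhb at 1.6447 and Neb at 1.6429 fell just outside. The limit therefore cuts through a continuous range. After background correction and normalization the median SD was 1.50 for members and 0.386 for the 14270 spots that were tested.

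The spread of the members lay in the tumour channel. Its median SD over the 12 arrays was 1.52 for members and 0.407 for all tested spots, while that of the reference channel was 0.246 and 0.197. Of the 200 members, the SD of the reference signal exceeded that of the tumour signal for 1, against 1273 of 14270 tested spots. The rule required a reference signal of at least 100 on all 12 arrays, and the tested spots had no such limit. A steady reference channel among members was thus partly set by the rule, and nothing is read from this contrast. Tumour signal reached 100 intensity units on all 12 arrays for 107 of 200 members, against 5900 of 7179 eligible spots. Members were thus more often dim in some tumour than eligible spots were. Above background on all 22 arrays were 21 members, against 1261 of 14270 tested spots. The part of dim signal in the members' spread was not tested.

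The members also varied widely in the 10 tumours that the rule did not use. Their median SD there was 1.26, against 0.549 over all tested spots and 0.659 over the eligible spots. Of the 200 members, 134 (67.0%) were among the 10% of tested spots with the highest SD over these 10 tumours, and 148 (74.0%) were when the 3 arrays with an unlike reference were left out. The plot of both SDs shows the members to the right, where the rule put them, and also above the bulk of spots.

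**Figure D1:**
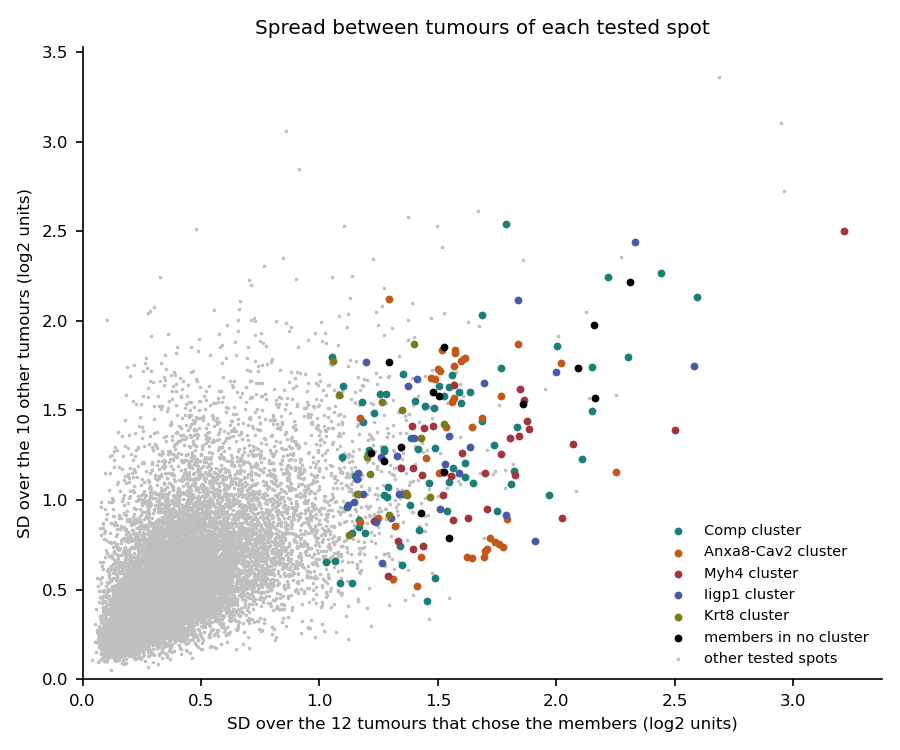
SD of the normalized log2 ratio of each of 14270 tested spots, over the 12 tumours that chose the members (x axis) and over the 10 others (y axis), in log2 units. Coloured points are members by cluster and grey points are other spots. The median on the y axis is 1.26 for members and 0.549 for all tested spots.

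A pair of tumours held much of the spread. p53coco Brca1coco tumour 1 held 22.8% of the members' summed squared deviations and p53coco tumour 2 held 22.5%, followed by p53coco tumour 1 with 10.4%. The other 7 Brca1coco tumours held 3.66% to 4.39% each. Over all tested spots the leading pair held 18.3% and 16.2%, so they stood out there too, but less. p53coco Brca1coco tumour 1 was the highest of the 12 at 49 members and the lowest at 82. These shares and counts are over spots and not genes, and 10 members are spots of Anxa8 and 9 of Cav2. The mean over the spots of either gene was highest in that tumour, at 3.12 and 5.54, so both genes are counted repeatedly there.

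**Figure D2:**
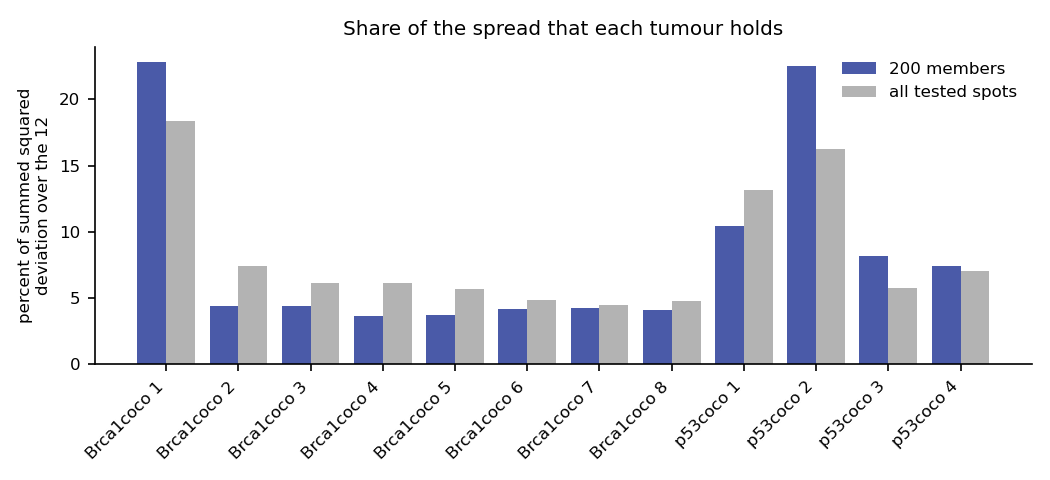
Share of the summed squared deviation from each spot's mean over the 12 tumours that each tumour holds, in percent, for the 200 members (blue) and all tested spots (grey). p53coco Brca1coco tumour 1 (22.8%) and p53coco tumour 2 (22.5%) are the highest bars for members.

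Average linkage on the correlation over the 12 tumours, with clusters formed at r of about 0.5, put 185 members into 5 clusters of 10 or more spots and left 15 outside. The clusters are called by leading genes, Comp (73 spots), Anxa8 and Cav2 (40), Myh4 (31), Iigp1 (27) and Krt8 (14). They were formed on these values and get no test. The heat map shows the clusters by tumour. The tumour with the largest share held 60.2% of the spread in the Myh4 cluster but 22.4% in the Iigp1 cluster.

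**Figure D3:**
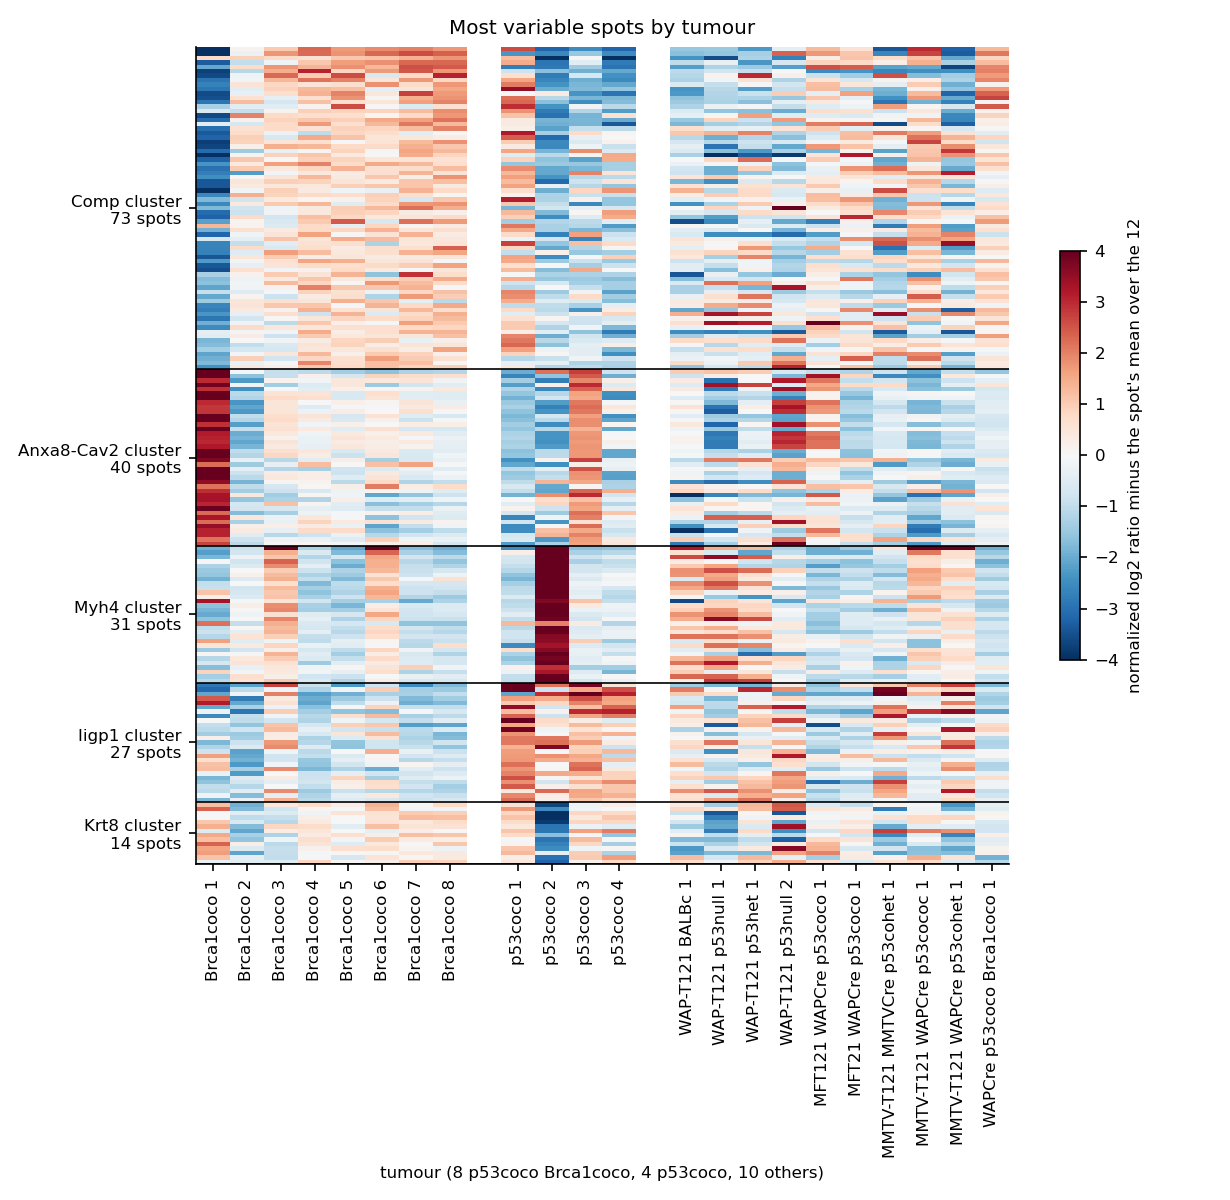
Normalized log2 ratio of the 185 clustered members (rows) minus each spot's mean over the 12 tumours, in 22 tumours (columns: 8 p53coco Brca1coco, 4 p53coco, 10 others). Red is above and blue below that mean, with colours limited at 4 log2 units. p53coco Brca1coco tumour 1 is low in the Comp cluster and high in the Anxa8-Cav2 cluster, and p53coco tumour 2 is high in the Myh4 cluster.

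The Myh4 cluster holds 31 spots of 28 genes, most of them known from skeletal muscle. Fast myosin heavy chains (Myh1, Myh2, Myh4), the sarcomeric proteins Actn2, Actn3, Acta1 and Mybpc2, the energy enzymes Ckm, Ckmt2 and Eno3, the oxygen carrier Mb and the calcium handling genes Ryr1, Atp2a1, Cacna1s and Trdn are among them. The mean of the cluster, as deviation from each spot's mean over the 12, was 4.37 in p53coco tumour 2, and the remaining p53coco tumours lay between -0.90 and -0.44. Among p53coco Brca1coco tumours it was 1.19 in tumour 3 and 0.87 in tumour 6 and at most -0.17 in the others.

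Myh4, the myosin of the fastest muscle fibres and the spot with the highest SD, had a lowest value of -3.72, a median of -3.10 and a highest value of 3.19 in p53coco Brca1coco tumours. In p53coco tumours 1 to 4 it was -4.11, 4.94, -3.26 and -3.21. It was thus above the reference in 3 of the 12 tumours, and the groups overlap. In the 10 other tumours it ranged between -3.57 and 2.78, highest in the MMTV-T121 WAPCre p53cohet tumour at 2.78 and the p53cococ tumour at 2.71.

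Other muscle genes were at or above the reference only in p53coco tumour 2 among the 12. Ckm, the muscle creatine kinase, was at 2.48 there, against -4.38, -3.15 and -2.78 in the other p53coco tumours and -4.32 to -1.51 in p53coco Brca1coco tumours. Actn3, a fast fibre actinin, was at 2.16 there and between -4.29 and -3.73 in the other p53coco tumours, with -4.63 to -1.82 in p53coco Brca1coco tumours. Acta1, skeletal actin, was at 0.96 there, against -4.75 to -3.79 in the other p53coco tumours and -4.85 to -2.14 in p53coco Brca1coco tumours. The spot most like the rest of the cluster, which has no gene name, was at 1.38 there. Myh2 reached 3.46, Myh1 2.99 and Cmya5, a muscle costamere protein, 1.71 in that tumour, and Fhl1, a LIM protein of muscle, stayed just below the reference at -0.08.

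All 6 genes of a skeletal muscle marker list were tested, and 4 of them are members. The mean of the list was 1.85 in p53coco tumour 2, against -4.23 to -3.55 in the other p53coco tumours and -4.29 to -1.27 in p53coco Brca1coco tumours. The 2 list genes that are no members, Tnnt3 and Mylpf, were at 0.72 and -0.15 in p53coco tumour 2. The lists of fibroblast and matrix genes and of mesenchymal genes, of which no gene is a member, were also highest there of the 12, at 0.34 and 0.39. In the rest of the 12 tumours these lists lay between -3.30 and -1.09 and between -1.70 and -0.40. The mesenchymal genes did not move together. Vim, Snai2, Zeb1 and Zeb2 were highest of the 12 in p53coco tumour 2, while Twist1, Snai1, Cdh2 and Fn1 were higher in other tumours. The endothelial list, at 0.55, and the erythroid list, at -1.15, were highest in p53coco tumour 2 too, against -0.56 to -0.29 and -3.42 to -1.88 in the rest. Of the endothelial genes, Pecam1 and Kdr were above background in only 3 of the 12 tumours and Cdh5 and Tek in 4. Whether muscle beside the tumour entered the sample was not tested.

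The Myh4 cluster was the one whose members kept together most in the tumours outside the rule. The median correlation between its spots was 0.885 over the 12 tumours and 0.566 over the 10 others, against about 0 for pairs of tested spots in both sets. Without p53coco tumour 2 and p53coco Brca1coco tumour 1 it was 0.703 over the remaining 10 of the 12. The points of each correlation are whole arrays, so they share depth and reference with one another.

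The Krt8 cluster holds 14 spots of 12 genes of epithelial sheets, among them the keratins Krt7, Krt8 and Krt18, the adhesion proteins Cdh1 and Epcam, the desmosome protein Dsp, its partner Perp and the hemidesmosome integrin Itgb4. It was low in the same p53coco tumour 2 in which muscle genes were high. The cluster mean was -2.91 there, against 0.21 to 0.75 in the other p53coco tumours and -1.12 to 1.06 in p53coco Brca1coco tumours.

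Krt8 had a lowest value of 0.50, a median of 2.01 and a highest value of 2.69 in p53coco Brca1coco tumours, and was 2.35, -2.21, 2.47 and 2.43 in p53coco tumours 1 to 4. Krt18, its partner keratin, ran between 1.95 and 3.55 in p53coco Brca1coco tumours and was 3.34, -2.01, 3.34 and 3.28 in p53coco tumours. A single p53coco tumour is thus below all 8 p53coco Brca1coco tumours, while its 3 companions lie inside their range. Perp, a p53 target and desmosome protein with the highest SD of this cluster, was -4.64 in p53coco tumour 2 and also low, at -2.90, in p53coco Brca1coco tumour 2. Cdh1, the adhesion protein of epithelial junctions, was -2.71 in p53coco tumour 2, and Epcam was -2.09.

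Of 10 luminal marker genes 6 were tested and 4 are members (Krt8, Krt18, Krt19 and Gata3). The mean of the tested genes was -1.04 in p53coco tumour 2, against 2.0 to 2.97 in the other p53coco tumours and 0.50 to 2.17 in p53coco Brca1coco tumours. Among the 10 other tumours the epithelial spots did not keep together in the same way, with a median correlation of 0.152 against 0.729 over the 12. Both Krt8 and Krt18 were below the reference in WAP-T121 p53null tumours 1 and 2, at -0.53 and -0.50 for Krt8 and -0.91 and -0.94 for Krt18. The array of p53null tumour 1 is among those with an unlike reference channel, and its tumour signal was weak, above background at 19.7% of spots.

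The Anxa8-Cav2 cluster holds 40 spots but 21 genes, since 10 spots carry the membrane-binding annexin Anxa8 and 9 carry Cav2, a caveolin of membrane pits. The repeated spots give one measure of the error between spots of an array, for these genes of wide spread. Over the 12 tumours the correlation between spots of the same gene was at least 0.963 for Anxa8 and 0.984 for Cav2, and the SD between such spots on an array was at most 0.27 and 0.28. A 10th Cav2 spot was tested and is no member. For 533 genes with 2 tested spots, the median correlation between both was lower, at 0.331 over the 12 arrays.

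This cluster was highest in p53coco Brca1coco tumour 1, with a mean of 3.42, against -1.15 to -0.03 in the other 7, and next highest in p53coco tumour 3 at 1.84. The remaining p53coco tumours lay between -1.45 and -0.68. Cav2, on the spot most like the rest of the cluster, was at 5.57 in p53coco Brca1coco tumour 1, with 0.28 to 1.98 in the other 7. In p53coco tumours 1 to 4 it was at -0.34, 0.22, 3.03 and -0.77. Ppbp, a chemokine of platelets, was at 4.28 in p53coco Brca1coco tumour 1 and between -2.76 and -1.20 in the other 7. In p53coco tumours it was at -3.10, 1.10, 1.67 and -1.92. Among p53coco Brca1coco tumours both genes are set apart by tumour 1. Among p53coco tumours Cav2 is highest in tumour 3, and Ppbp is above the reference in tumours 2 and 3.

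The marker genes of the cluster come from several cell types. Krt14, a basal keratin, was at 2.80 in p53coco Brca1coco tumour 1 and at most 0.37 in the other 7, and at -2.12, -1.18, 1.72 and 0.57 in p53coco tumours. The list of basal and myoepithelial markers, 7 of 8 tested and 1 a member, averaged -0.68 in p53coco Brca1coco tumour 1, against -2.01 to -1.21 in the other 7 and -2.20 to -0.44 in p53coco tumours. In that tumour the keratin Krt17 was at 1.95 and the transcription factor Trp63 at 0.78, while Krt5 was at -3.01 and the contractile genes Cnn1, Myh11 and Acta2 were at -3.15, -2.92 and -1.19. Basal markers therefore did not move together. Krt19, a keratin of simple epithelium, was at 3.28 in that tumour, against -1.06 to 0.44 in the other 7, and at -0.64, -1.74, 2.67 and 1.81 in p53coco tumours. S100a8 and S100a9, calcium-binding proteins abundant in neutrophils, were at 2.52 and 1.26 in that tumour, above the other 7 with -2.19 to 0.22 and -4.13 to -1.59. Msln, mesothelin, was at 4.02 there and at most 0.49 in the other 7, and reached 2.05 in p53coco tumour 3.

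The tested 3 of 5 macrophage and neutrophil markers averaged 1.54 in p53coco Brca1coco tumour 1, against -2.12 to -0.31 in the other 7 and -2.11 to 1.09 in p53coco tumours. Of these 3, S100a8 and S100a9 are members, so the average restates them. Lyz2, a lysozyme of myeloid cells and the one that is no member, was at 0.83 in that tumour, below p53coco Brca1coco tumours 3, 5 and 6 at 1.95, 1.07 and 1.43. The part of such cells in the cluster's high values was not tested. Outside the 12 tumours the cluster loosened, with a median correlation of 0.102 against 0.747 over the 12, and 0.585 over the 12 without p53coco Brca1coco tumour 1 and p53coco tumour 2. Krt14 was highest of all 22 tumours in WAP-T121 p53null tumour 2, at 5.03.

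The Comp cluster, the largest with 73 spots of 69 genes, was low in p53coco Brca1coco tumour 1 and in 3 of 4 p53coco tumours. Its mean was -2.47 in p53coco Brca1coco tumour 1 and 0.06 to 1.11 in the other 7, and was 0.89, -1.58, -0.83 and -1.06 in p53coco tumours 1 to 4. The cluster mixes genes known from cartilage with genes of gland epithelium, and it does not separate the groups. The plot of cluster means shows the tumours that stand apart.

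**Figure D4:**
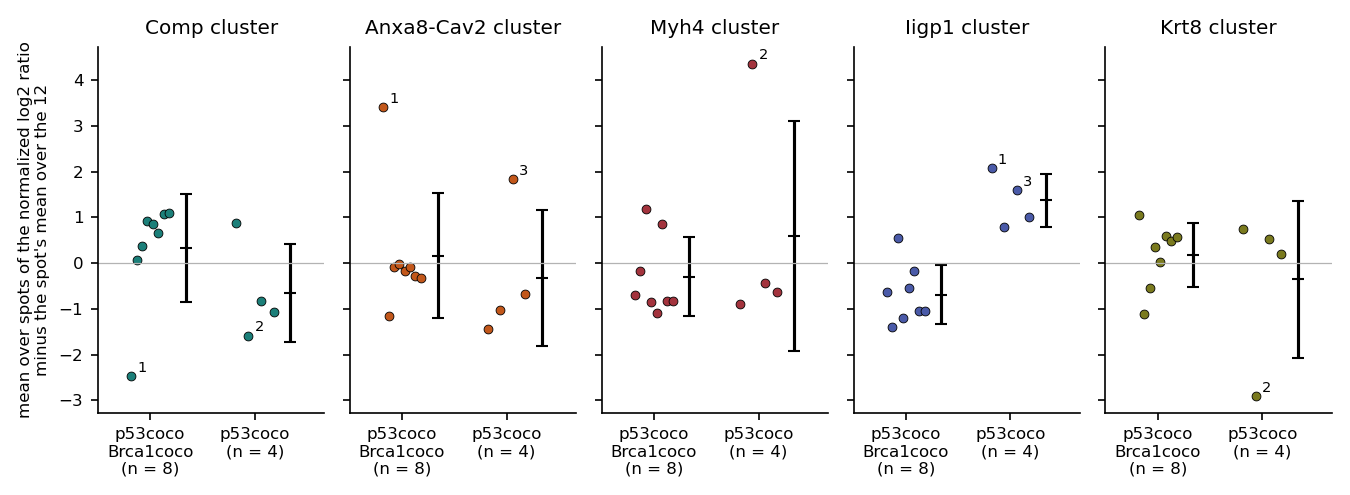
Mean over the spots of each of 5 clusters of the normalized log2 ratio minus the spot's mean over the 12 tumours, in 8 p53coco Brca1coco (left) and 4 p53coco tumours (right), with group means and SD as bars. Numbers mark the tumours farthest from 0. p53coco Brca1coco tumour 1 lies at -2.47 in the Comp cluster and 3.42 in the Anxa8-Cav2 cluster, and p53coco tumour 2 at 4.37 in the Myh4 cluster.

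Comp, the cartilage oligomeric matrix protein, had -3.11 in p53coco Brca1coco tumour 1 and 1.55 to 3.70 in the other 7, with a median of 3.12 over the 8. In p53coco tumours 1 to 4 it was 4.03, -1.79, -1.12 and -1.78, and only 2 of these 4 were above background. In the 10 others it ranged between -2.01 in the MMTVCre p53cohet tumour and 4.40 in the p53cococ tumour. The tumours thus fall to either side of the reference inside both groups.

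Snorc, a membrane proteoglycan of cartilage, was at -2.45 in p53coco Brca1coco tumour 1 and 1.24 to 4.13 in the other 7, and at -0.80, -1.06, -0.00 and -1.0 in p53coco tumours. Cytl1, a secreted protein known from cartilage, was at -2.94 in that tumour and -0.30 to 3.86 in the other 7, and at -1.23 to -0.04 in p53coco tumours. Col11a1, a fibrillar collagen of cartilage, was at -3.83 in that tumour and -0.60 to 1.42 in the other 7, and at -0.41, -2.63, -2.59 and -2.78 in p53coco tumours. For Snorc and Cytl1, p53coco tumour 1 sat with its group, unlike for Comp.

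The 10 genes of cartilage matrix, chosen by name after the values were seen, showed this pattern as a group (Comp, Snorc, Cytl1, Col11a1, Col9a1, Col9a2, Col9a3, Acan, Scrg1 and Mgp). Their mean deviation was -3.18 in p53coco Brca1coco tumour 1 and 0.07 to 1.82 in the other 7, and -0.16, -1.65, -1.32 and -1.64 in p53coco tumours 1 to 4. Among the others it was 1.35 in WAP-T121 p53null tumour 2, 1.24 in the p53cococ tumour and 0.91 in the WAPCre p53coco Brca1coco tumour. It was -1.45 and -1.85 in the MMTVCre and WAPCre p53cohet tumours.

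The epithelial members of the Comp cluster did not share 1 pattern. Gata3, the transcription factor of luminal cells, was at -3.01 in p53coco Brca1coco tumour 1 and 0.94 to 2.62 in the other 7, and at 1.93, -0.72, 2.11 and 3.02 in p53coco tumours. Csn3, kappa casein of milk, was at -0.26 in p53coco Brca1coco tumour 1 and 4.93 to 6.34 in the other 7, and at 3.77 to 6.37 in p53coco tumours. Aqp5, a water channel of gland epithelium, was 3.80 to 4.96 in all 8 p53coco Brca1coco tumours, tumour 1 included, and 4.44, -1.87, 3.11 and -1.40 in p53coco tumours. Milk markers as a list of 7 genes averaged -0.57 in p53coco Brca1coco tumour 1 and 0.88 to 5.43 in the other 7, and 1.86 to 5.52 in p53coco tumours.

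The other Comp cluster genes among the 30 of highest SD include Meltf, an iron-binding melanotransferrin, Ecrg4, a secreted precursor, Car6, a secreted carbonic anhydrase, Cldn10, a claudin of tight junctions, and the transporter Flvcr2. Fetub, a fetuin, Mgp, an inhibitor of calcification, the Wnt receptor Fzd9, the peptidase Cpm, Tspan1, B3galt5, Krt23 and the pyrophosphate transporter Ank complete them. For Meltf, Car6, Cldn10, Flvcr2, Fetub, Fzd9, Cpm, Tspan1, Krt23 and Mgp, p53coco Brca1coco tumour 1 was the lowest of its group. Ecrg4 was at -0.66 in that tumour and 2.11 to 3.98 in the other 7, and at -1.57 to -0.04 in p53coco tumours. Over the 10 other tumours the median correlation between cluster members was 0.181, against 0.652 over the 12.

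The Iigp1 cluster, 27 spots of 23 genes, had the largest difference of cluster means between p53coco Brca1coco and p53coco tumours. Its mean was below 0 in 7 of 8 p53coco Brca1coco tumours, between -1.40 and -0.17, with 0.56 in tumour 3, and was 2.08, 0.80, 1.60 and 1.02 in p53coco tumours 1 to 4. The groups do not overlap in this mean. All 27 spots had a lower mean in p53coco Brca1coco than in p53coco tumours, with a median difference of -1.92. As the cluster was formed on these arrays, these counts support nothing by themselves. The median correlation between its spots was 0.616 over the 12 tumours and 0.356 over the 10 others. Over the 12 without p53coco Brca1coco tumour 1 and p53coco tumour 2 it was 0.727.

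The cluster holds genes that interferons are known to induce. They are the immunity-related GTPases Iigp1, Igtp and Irgm2, the guanylate-binding protein Gbp3, the DNA sensors Ifi204 and Ifi205, the tether Bst2, and Slfn5, Parp14, Phf11a, Ifi27l2a and Lgals3bp. Interferons act through receptors and STAT factors on promoters that hold a response element, of which a pair of GAAA words set 2 bases apart is a simple form. Of the 167 member genes 127 had a promoter in the RefSeq table (GRCm38.p6), as had 16 of the 23 of this cluster. This motif was found on either strand in 8 of these 16 windows, which run from 250 bases before the gene start to 50 after it. They were found in 1 of 52 windows of the Comp cluster, in 0 of 16, 0 of 24 and 0 of 8 of the Anxa8-Cav2, Myh4 and Krt8 clusters, and in 3.99% of 27025 genes in all. In all, 12 motifs were searched on both strands after the clusters were known (this one, TTCNNNGAA for STAT factors, the general E-box CANNTG, which includes CAGCTG, the A and T box TATTTATA, AACAAAG for SOX factors, ACCACA for RUNX factors, GATAAG for GATA factors, the palindrome-like CCTNNNGGG and the longer MEF2 and SRF boxes), and this one was chosen for printing because it set the cluster apart. CAGCTG, an E-box of muscle factors, was in 10 of 24 windows of the Myh4 cluster and 18.3% of all genes. A match describes letters and is no evidence that a factor binds.

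The 8 windows are printed to show the letters themselves, 60 bases each, 5′ to 3′ on the strand of the gene, with the motif in capitals on whichever strand it lies. Overlapping matches form 1 run in Bst2 and Gbp3, the Gbp3 run lies on the opposite strand, and the Igtp and Irgm2 windows are near copies.
Igtp, chr11:58199496-58199555, plus strand: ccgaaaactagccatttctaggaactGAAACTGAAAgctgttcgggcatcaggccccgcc
Irgm2, chr11:58214888-58214947, plus strand: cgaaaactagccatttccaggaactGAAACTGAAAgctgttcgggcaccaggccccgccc
Gbp3, chr3:142559980-142560039, plus strand: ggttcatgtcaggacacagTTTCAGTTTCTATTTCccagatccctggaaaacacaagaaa
Bst2, chr8:71537562-71537621, minus strand: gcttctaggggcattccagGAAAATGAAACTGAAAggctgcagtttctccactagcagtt
Ifi205, chr1:174031855-174031914, minus strand: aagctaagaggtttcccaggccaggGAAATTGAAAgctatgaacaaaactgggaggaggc
Phf11a, chr14:59297523-59297582, minus strand: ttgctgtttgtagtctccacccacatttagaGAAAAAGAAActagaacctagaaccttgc
Slfn5, chr11:82951922-82951981, plus strand: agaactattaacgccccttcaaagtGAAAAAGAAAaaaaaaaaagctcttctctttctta
Tgfbi, chr13:56609367-56609426, plus strand: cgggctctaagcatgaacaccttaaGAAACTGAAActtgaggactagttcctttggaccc

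Igtp, whose window heads this set, had a lowest value of -1.25, a median of -0.13 and a highest value of 1.70 in p53coco Brca1coco tumours, and 4.36, 0.05, 1.99 and 3.17 in p53coco tumours. Iigp1 ran between -3.21 and 0.93 in p53coco Brca1coco tumours and was 4.03, -0.89, 1.46 and 2.51 in p53coco tumours. The groups overlap for both, as p53coco tumour 2 lies among the p53coco Brca1coco tumours. Parp14, the member most like the rest of the cluster, ran between -0.95 and 1.22 in p53coco Brca1coco tumours and was 2.72, 1.09, 2.31 and 2.20 in p53coco tumours.

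In the tumours that the rule did not use, the interferon genes differed between tumours. Each full label there holds 1 tumour, except WAP-T121 p53null with 2, so a label and a single tumour cannot be told apart. The mean deviation of the 12 interferon genes named above, chosen after the values were seen, was 1.98 in the MMTVCre p53cohet tumour, 0.40 in the WAPCre p53cohet tumour and -0.19 in the p53cococ tumour. It was -1.22 in the MFT121 and -0.77 in the MFT21 WAPCre p53coco tumour, which carry p53coco without Brca1coco, and -0.30 in the WAPCre p53coco Brca1coco tumour. In WAP-T121 tumours it was -1.12 and 1.20 for p53null, 0.94 for p53het and 0.55 for BALBc. The arrays of p53null tumour 1, the p53het tumour and the BALBc tumour have an unlike reference channel, so their values compare poorly with the rest. A separate list of 6 interferon genes, of which 4 were tested and none is a member (Isg15, Ifit1, Ifit3 and Mx1), averaged -0.44 to 1.44 in p53coco Brca1coco tumours and 1.65, 0.14, 1.79 and 1.89 in p53coco tumours 1 to 4.

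The rest of the Iigp1 cluster includes genes of lipid handling and of blood cells. Fabp3, the fatty acid-binding protein known from heart, muscle and mammary epithelium, had a lowest value of -4.32, a median of -3.44 and a highest value of -0.13 in p53coco Brca1coco tumours, and -4.23, 0.81, 1.86 and 0.96 in p53coco tumours. Plin4, a lipid droplet coat protein, ran between -4.73 and -1.21 in p53coco Brca1coco tumours and between -2.63 and -0.74 in p53coco tumours. Ly6c2, a surface protein of monocytes, was at 2.82 in p53coco Brca1coco tumour 1 and -2.42 to 0.76 in the other 7, and at 1.86 to 2.97 in p53coco tumours. The highest SD of the cluster belongs to a spot with no gene name, at -5.67 to -0.12 in p53coco Brca1coco tumours and -2.35 to 1.36 in p53coco tumours.

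Genes of the cluster parted in single tumours. Cd36, a fatty acid transporter, was at -0.49 in p53coco Brca1coco tumour 3 and -3.84 to -2.82 in the other 7, and at -1.99, -0.13, -0.81 and -1.30 in p53coco tumours 1 to 4. Retnla, a secreted resistin-like protein, was at 2.94 in p53coco tumour 1 and -1.07 to -0.35 in the other p53coco tumours, with -1.99 to 0.36 in p53coco Brca1coco tumours. In p53coco tumour 1, Retnla was thus the highest of the 12 while Fabp3 was among the lowest. Of 6 adipocyte markers 4 were tested, none of them a member. They averaged -0.89 in p53coco Brca1coco tumour 3 and -3.15 to -2.44 in the other 7, and -1.93 to -0.94 in p53coco tumours. Of these markers, Lep did not share this pattern and stayed between -0.26 and 0.29 in the 12. B cell and plasma markers, of which 2 of 4 were tested, averaged 3.33 in p53coco tumour 1 and 0.55 to 1.42 in the other p53coco tumours, with -0.05 to 0.85 in p53coco Brca1coco tumours. The part of fat, lymphocytes or array set in the cluster's difference was not tested.

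**Figure D5:**
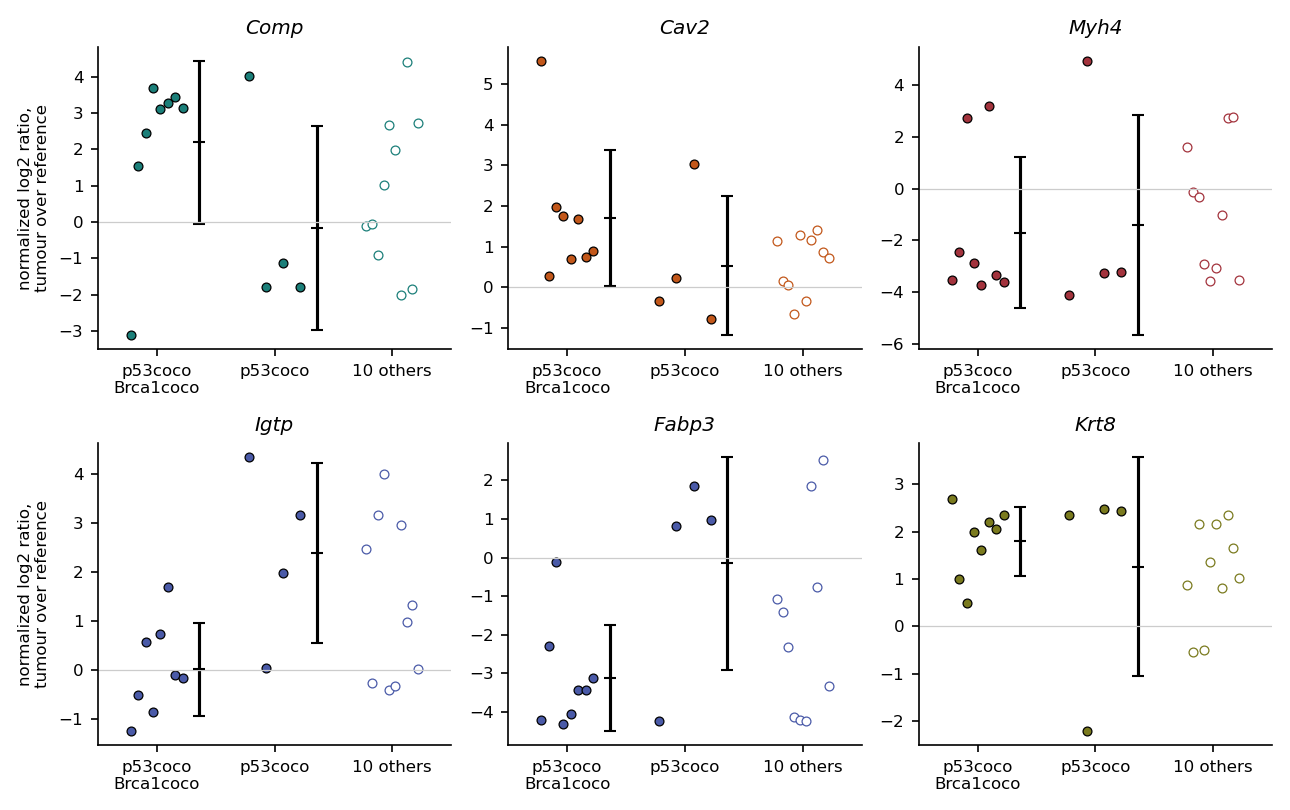
Normalized log2 ratio of tumour over reference for 6 member spots in 8 p53coco Brca1coco, 4 p53coco and 10 other tumours. Bars give the mean and SD of each group, with none for the mixed others. Comp is split inside both groups, and Igtp and Fabp3 overlap between groups through single p53coco tumours at 0.05 and -4.23.

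Of the 15 members outside the clusters, Sftpd and Pip had the highest SD. Sftpd, a lectin of innate defence, ran between -5.11 and 0.84 in p53coco Brca1coco tumours, with -0.30, -2.66, 3.78 and 0.71 in p53coco tumours, and was highest of all 22 in the WAPCre p53cohet tumour at 4.10. Pip, a secreted protein of exocrine glands, was above the reference in 2 p53coco Brca1coco tumours, at 2.95 in tumour 3 and 0.83 in tumour 5, and was -4.70 to -1.11 in the other 6 and -4.50 to -1.30 in p53coco tumours. Each follows tumours of its own.

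The Brca1 comparison asks whether expression differed between p53coco Brca1coco and p53coco tumours. The fit took 1 mean for each of 11 groups over 22 arrays, with limma's moderated test and Benjamini-Hochberg adjustment over 14270 spots at 0.05. No member passed (0 of 200), against 1 of 14270 tested spots (0.00701%). At an unadjusted p under 0.05 there were 46 members, 19 higher and 27 lower, against 10% of tested spots, and 26 of the 27 lower ones lie in the Iigp1 cluster. The same 12 arrays chose the members for their spread and formed the clusters, so nothing is read from these counts, nor from those of the settings below. The residual variance comes mostly from the arrays that chose the members for their spread, so their standard errors are large.

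The lowest adjusted p of a member belonged to Ecrg4, which averaged 2.64 ± 1.46 in p53coco Brca1coco tumours (SD, n = 8) and -1.12 ± 0.73 in p53coco tumours (SD, n = 4). The difference was 3.76 (standard error 0.69), the limma adjusted p was 0.120, and the groups overlap through p53coco Brca1coco tumour 1. Ifi204 and Ifi205, sensors of DNA in the nucleus and cytoplasm, came next. They are the 2 members whose 8 p53coco Brca1coco values all lie below the 4 p53coco values, while 179 of 14270 tested spots (1.25%) have groups that do not overlap in either direction and 0.778% lie below. Ifi204 averaged 0.07 ± 0.83 in p53coco Brca1coco tumours (SD, n = 8) and 2.24 ± 0.21 in p53coco tumours (SD, n = 4), a difference of -2.17 with a standard error of 0.42. Ifi205 averaged -0.06 ± 0.69 and 2.14 ± 0.46 in the same groups, a difference of -2.20 with a standard error of 0.48. The limma adjusted p was 0.141 for Ifi204 and 0.184 for Ifi205, so neither passed.

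The count of members called moved with single arrays and their weights. With array weights, which lower the influence of arrays that deviate most, 54 members passed, 34 higher and 20 lower, against 6.35% of tested spots. Of these, 32 of the higher ones are in the Comp cluster and 16 of the lower ones in the Iigp1 cluster. These weights act on the tumours whose spread chose the members, so the count is a description. Leaving out p53coco Brca1coco tumour 1 let 5 members pass, against 0.203% of tested spots. Snorc, Ecrg4 and Foxa3 were higher and Ly6c2 and Ifi204 lower in p53coco Brca1coco tumours.

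Control spots place 6 p53coco Brca1coco tumours and 1 p53coco tumour in one set of arrays and 2 and 3 in another, so array set is largely confounded with the label. Within the first set 4 members passed (0.231% of tested spots), Lgals7 and Mmp13 higher and Serpina3n and a spot without gene name lower. With 1 p53coco tumour in that set, these values set p53coco tumour 1 alone against 6 p53coco Brca1coco tumours. Within the second 10 passed (0.161%), 7 higher, all of the Comp cluster, and 3 lower, Fabp3, Ifi27l2a and Ifi204. With the array sets set against each other at a fixed label, 0 members passed, against 0.0561% of tested spots, and 9 had an unadjusted p under 0.05 against 13.6%.

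The p53 comparison in Cre tumours sets the 4 p53coco tumours against the 2 MMTV-T121 p53cohet tumours. Both p53cohet arrays lie in the first array set, as does p53coco tumour 1, while the other 3 p53coco tumours lie in the second. Array set is thus largely confounded with the p53 label too. With array set as a block, 116 of 14270 tested spots passed and 0 members. A single member passed of 200, against 273 of 14270 tested spots (1.91%, and 1.65% lower), and 6 had an unadjusted p under 0.05 against 16.8%. Smim10l1, a small membrane protein gene of the Comp cluster, was at -0.64, -1.20, -3.12 and -1.03 in p53coco tumours, against 1.13 in the WAPCre and 1.87 in the MMTVCre p53cohet tumour. The difference was -3.00 with a standard error of 0.68 and a limma adjusted p of 0.0420. The 4 p53coco arrays are among those that chose the members, so nothing is read from this call. It was lost in 13 of 16 other settings, with limma adjusted p-values between 0.00339 and 0.481 over all of them. Array set as a block, 1 of these settings, gave a limma adjusted p of 0.208. The difference itself ran between -4.07 and -2.46 in these settings.

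The p53 comparison in WAP-T121 tumours sets 2 p53null tumours against 1 p53het tumour. The arrays of p53null tumour 1 and the p53het tumour have an unlike reference channel, with correlations of 0.544 and 0.606 to the median array. The tumour channel of p53null tumour 1 correlated with the median array at only 0.334. In this comparison, and in its difference from the other p53 comparison, p53 status cannot be told apart from reference signal or from weak tumour signal. No member passed (0 of 200), against 2.31% of tested spots, and 3 had an unadjusted p under 0.05 against 15.3%. The difference between both p53 comparisons was past the threshold for 0 members, against 2.94% of tested spots. For T121, the 8 p53coco Brca1coco tumours with MMTV-T121 were set against the 1 WAPCre p53coco Brca1coco tumour without it. No member passed, against 0.0771% of tested spots, and 0 had an unadjusted p under 0.05 against 3.92%. With 1 tumour in a group, its spread is assumed to equal that of the others. Comp was at 3.12 as the median of the 8 and 2.73 in the tumour without T121, and Igtp was at -0.13 and 0.01.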

How the data were processed

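Tumour and reference intensity with their local backgrounds, on a linear scale, were deposited for each spot, per the file headers. The log2 ratio of tumour over reference that the authors deposited was lowess-normalized, per the file headers, and served as an alternative. Per the labels' protocols, RNA of end-stage tumours was amplified and labelled with Cy5 and the reference with Cy3. Scanner and image software: not given in the sources used here. Dyes were not swapped. Precision is limited by the number of arrays.

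Members were chosen by the log2 ratio of net signals with a floor of 16, centred on each array's median, among usable spots with a net reference signal of at least 100 on all 12 arrays and a net tumour signal of at least 100 on at least 4. All values are from normexp (offset 50) and loess within each array, with no weight on control spots, in limma 3.58.1 under R 4.3.3. Of 19398 usable spots, 14270 with tumour signal above background by 2 SD on at least 4 arrays were tested, two-sided, with lmFit and eBayes. Figures and correlations used Python 3.11.15.

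Spots were named through the platform annotation and RefSeq, with 18218 spots of 1 gene, 16 of several and 4341 of none. For 533 genes with 2 tested spots, the median correlation between both was 0.331 over the 12 arrays, against 0 for all pairs. Promoters are RefSeq's (GRCm38.p6). Members, marker lists and tests were chosen with earlier results of these data known, and genes beyond the rule below, role groups and motifs after values were seen. The rule named the 30 genes of highest SD, members of the marker lists, the spots at the limit, and per cluster the spot of highest SD and the spot most correlated with the rest. Whether each tumour came from its own animal is not in the labels, so the spread behind the p-values may be partly technical. The procedure was tested on simulated data. Alternatives were other ratios, background, centring and scaling steps, filters, array set as a block, array weights and leaving out arrays.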

Additional observations from a re-analysis of the deposited data

Results flagged for a closer look

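In groups of 4 to 10 tumours, 1 tumour was called apart where its gap to the next value, over the range of the group, passed Dixon's 95% critical value, which chance passes in about 1 of 20 groups. This held for 39 of 102 groups behind printed values (38.2%), for 104 of 400 groups over all members (26.0%) and for 10.5% of groups over all tested spots. The members were chosen for spread over these same arrays, so nothing is read from it. No cause was tested.

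Among p53coco Brca1coco tumours, tumour 1 stood apart for 19 of these. It was low for Comp at -3.11, Snorc at -2.45, Ecrg4 at -0.66, Cldn10 at -1.94, Flvcr2 at -2.21, Fetub at -3.88, Fzd9 at -2.37, Krt23 at -3.92, Col11a1 at -3.83, Csn3 at -0.26 and Gata3 at -3.01. It was high for Ppbp at 4.28, Msln at 4.02, Krt19 at 3.28, S100a9 at 1.26, Krt14 at 2.80 and Cav2 at 5.57. The Comp cluster mean was -2.47 and the Anxa8-Cav2 cluster mean 3.42 in that tumour. Tumour 2 stood apart for Perp at -2.90, and tumour 3 for the spot without gene name of highest SD in the Iigp1 cluster, at -0.12.

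Among p53coco tumours, tumour 2 stood apart for 11. It was high for Myh4 at 4.94, Myh1 at 2.99, Actn3 at 2.16, Cmya5 at 1.71, Acta1 at 0.96, Fhl1 at -0.0837 and a spot without gene name of the Myh4 cluster at 1.38, and low for Krt8 at -2.21 and Krt18 at -2.01. The Myh4 cluster mean was 4.37 and the Krt8 cluster mean -2.91 in that tumour. Tumour 1 was high for Comp at 4.03, Cldn10 at 2.57, Flvcr2 at 2.59, Fetub at 2.50, Cpm at 2.65 and Col11a1 at -0.41, and tumour 3 was high for Ecrg4 at -0.0396.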

How the results depend on the processing

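Of the 200 members, 107 were kept when tumour signal of 100 was required on all 12 arrays, 104 with the median absolute deviation, 133 within the 8 p53coco Brca1coco tumours and 126 within the 4 p53coco tumours. Leaving out p53coco Brca1coco tumour 1 and p53coco tumour 2 together, chosen after seeing the data, kept 131, and leaving out each tumour in turn kept 157 to 194. In the Brca1 comparison, 54 members passed with array weights, and 4 and 10 within the first and second array set, both chosen after seeing the data. Leaving out each tumour gave 0 to 5. In the p53 comparison of Cre tumours, 0 members passed with the authors' ratios, the series value table, the ratio of the rule, no background correction, median centring, scaling, the compared groups alone or array set as a block, and 5 with array weights. Leaving out each tumour gave 0 to 1. The cause was not tested. In the WAP-T121 and T121 comparisons 0 members passed in every setting run. Over all tested spots the calls ran between 0 and 906 for Brca1 (1 as reported), 0 and 1580 for p53 in Cre tumours (273), 0 and 730 for p53 in WAP-T121 tumours (330) and 0 and 48 for T121 (11). Without both tumours, the median correlation was 0.703 for the Myh4 cluster and 0.50 for the Krt8 cluster. The only called member, Smim10l1, kept its direction in all 16 alternatives. Over all tested spots the split of calls in the WAP-T121 comparison was 208 higher and 122 lower, but 28 and 372 with median centring and 13 and 585 with the ratio of the rule. For Brca1 it was 4 and 29 within the first array set and 19 and 4 within the second. No paired analysis was possible because the labels do not pair tumours between groups. Dim signal limits the low values, and array set and label are largely confounded.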

Other observations

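Some members followed tumours that no cluster describes, and the following values were picked after they were seen. Malat1, a nuclear RNA that codes for no protein, was at 2.06, 1.12, 0.10, 0.76, -1.90, -3.03, 1.15 and 0.89 in p53coco Brca1coco tumours 1 to 8, and at -3.40, 3.40, 1.79 and 1.56 in p53coco tumours 1 to 4. Pigt, part of the enzyme that attaches GPI anchors, was at 5.04, 5.44, 4.44, 5.22, -0.04, -0.00, 3.13 and 3.29, and at -0.57, 4.60, 3.78 and 2.78, in the same tumours. Both were low in p53coco Brca1coco tumours 5 and 6 and in p53coco tumour 1. The correlation of both spots was 0.851 over the 12 tumours and 0.906 over the 10 others.

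Sftpd was most like Pfdn1, with a correlation of 0.917 over the 12 tumours and 0.711 over the 10 others. Pip and Mucl1, both secreted by glands, correlated at 0.826 over the 12 tumours and 0.415 over the 10 others. These correlations are over whole arrays, which share depth and reference, and carry no test.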
